A study of Mus musculus with 6 samples.

Results

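The expression of 8 genes, Ifitm1, Ifitm2, Ifitm3, Ifi27, Ifi27l2a, Ly6e, Ly6a and Ly6c1, was examined in the hippocampus of mice with an altered glutamate transporter. The members were the rows of the deposited table that carry one of these symbols as gene name, and all 8 were found among the 54532 genes. Each of the 8 passed the minimum mean of 0.1 FPKM (fragment counts scaled by gene length and by library size), as did 20952 genes in all.

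The study asked which hippocampal transcripts change when GLT-1, the main glutamate transporter of astrocytes, carries a pair of amino acid changes. The paper names each change as a separate variant clinically associated with epilepsy. RNA was sequenced from 3 WT mice, which were wild type littermates, and from 3 TG mice, in which CRISPR/Cas9 had placed both changes, glycine to arginine and leucine to proline, into the endogenous Slc1a2 gene on a C57BL/6N background. The alleles were therefore in the germ line and not restricted to a cell type, and no drug treatment is given for either group. Age, and whether the sequenced TG mice carried 1 or 2 altered copies, are not given in the sources used here. The sample titles number the mice of each group from 1 to 3. Whether a library could hold more than 1 mouse is not given, and each is taken here as 1 mouse.

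All 12 neuronal genes listed for the hippocampus had a mean FPKM of at least 1, so the tissue carried its defining markers. Slc1a2 itself lay between 177 and 202 FPKM in WT and between 207 and 222 FPKM in TG, but an FPKM of a gene cannot show the exchanged bases. The libraries held between 16081281 and 18751057 reads on genes. The TG1 and TG2 libraries stood apart from the other 4 in 18 genes of choroid plexus epithelium, the tissue that secretes cerebrospinal fluid. The summed FPKM of that list was 1362 in TG1 and 4242 in TG2, against 99.8 in TG3 and 88.8 to 121.5 in WT. Ttr made up most of these sums, at 1167.6 FPKM in TG1 and 3705.5 FPKM in TG2. The list median of the log2 difference from the WT mean was 3.10 in TG1, 4.33 in TG2 and -0.04 in TG3. Fits without TG1, TG2 or both are given for members only. Fold changes of relatives, targets and marker lists rest on all 6 libraries.

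Interferons are cytokines that act through cell surface receptors and intracellular signal proteins to switch on antiviral genes, and the members belong to 3 families of small membrane proteins that this pathway can raise. IFITM proteins sit in the plasma membrane and endosomes and hinder fusion of enveloped viruses, and IFI27 proteins are very hydrophobic proteins of intracellular membranes. LY6 proteins are held at the cell surface by a lipid anchor. In the mouse brain Ly6a and Ly6c1 are best known as markers of capillary endothelium.

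The genes lay in 3 clusters of the GRCm38 genome. Ifitm2 (chr7:140954837-140955987, minus strand), Ifitm1 (chr7:140967221-140969825, plus strand) and Ifitm3 (chr7:141009586-141010770, minus strand) followed each other on chromosome 7. Ifi27 (chr12:103434211-103440239, plus strand) and Ifi27l2a (chr12:103442167-103443680, minus strand) were neighbours on chromosome 12. Ly6e (chr15:74955051-74959905, plus strand), Ly6a (chr15:74994877-74998031, minus strand) and Ly6c1 (chr15:75044018-75048830, minus strand) lay on chromosome 15. Within a family the coding sequences were similar over the bases that aligned, with gaps left out. Ifitm1 was 82.1% identical to both Ifitm2 and Ifitm3, and Ly6a was 77.9% identical to Ly6c1 but 64.4% identical to Ly6e. Ifi27 was 77.0% identical to Ifi27l2a over 270 aligned bases, and the rest of its 780 coding bases had no counterpart.

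Near-identical stretches decide how well reads can be told apart. Of all 50-base stretches of its transcripts, Ifi27 and Ly6e shared 0% with any other gene and Ifi27l2a shared 0.483%. Ifitm1 shared 5.02% and Ifitm3 shared 10.02%. Ly6a shared 19.0%, most of it with Ly6c1, and Ly6c1 shared 32.8%, of which 21.5% was with Ly6c2 and 11.1% with Ly6a. Ifitm2 shared 48.5%, and the largest portion, 36.1%, was with Gm45717, a predicted gene that overlaps it on chromosome 7 and was listed at 0 in all 6 libraries. The levels of Ifitm2, Ly6a and Ly6c1 are therefore uncertain to the extent that the counting left out such reads or gave them to another gene.

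Promoter sequence from RefSeq (GRCm38.p6) matched 4 of the 8 genes, Ifitm1, Ifitm2, Ifitm3 and Ly6c1. Both strands of the windows from 250 bases before to 50 bases after the start site were searched for GAAA followed by any 2 bases and GAAA again, a short form of the interferon-stimulated response element, and for TTCNNNGAA, a palindrome found in another class of cytokine response elements. The 100 bases around the start are shown for the 3 Ifitm genes, since these neighbouring genes of similar coding sequence differed in these letters, with 70 bases before the start, 30 after it and every match to that GAAA repeat in capitals. They were read from chr7:141010715-141010814 (minus strand) for Ifitm3, chr7:140955932-140956031 (minus strand) for Ifitm2 and chr7:140968006-140968105 (plus strand) for Ifitm1.
Ifitm3: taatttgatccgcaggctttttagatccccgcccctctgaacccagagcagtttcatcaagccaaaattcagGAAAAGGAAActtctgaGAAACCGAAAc
Ifitm2: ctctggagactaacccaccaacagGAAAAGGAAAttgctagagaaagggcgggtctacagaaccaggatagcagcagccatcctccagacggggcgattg
Ifitm1: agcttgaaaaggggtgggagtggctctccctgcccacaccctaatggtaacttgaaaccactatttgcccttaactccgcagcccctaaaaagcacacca

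The Ifitm3 window held 2 matches to the GAAA repeat and Ifitm2 held 1, while 0 were found in the Ifitm1 window and in the Ly6c1 windows. The Ifitm1 window lay around a start at position 140968076, inside the annotated gene. Sequence around the upstream end of that gene, at 140967221, was not searched. Of all 32817 windows of the same length, 3.43% held the repeat and 0.222% held them at least 2 times. TTCNNNGAA was found once among these windows, in Ifitm3, where it overlapped the second capital stretch, and it was present in 8.29% of all windows. A match describes letters, not binding.

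None of the 8 genes differed between TG and WT after adjustment over all genes tested (limma with Benjamini-Hochberg adjustment, adjusted p from 0.786 to 0.980), against a background of 1 gene in 20952 that was higher in TG, or 0.00477%. Ifitm3 had an unadjusted p under 0.05 and was higher in TG, and 0 members were lower at that level, while 3.13% of all genes were higher, 2.78% were lower and 5.91% passed that level in either direction. In Ifi27 alone did all TG values lie above all WT values, which was so for 6.35% of all genes, and in 0 members did they all lie below, against 5.71% of all genes. The log2 fold change was above 0 in the 5 Ifitm and Ifi27 genes and below 0 in the 3 Ly6 genes, with a median of 0.14, beside 49.6% of genes above 0 and a median of -0.00 over all genes.

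**Figure D1:**
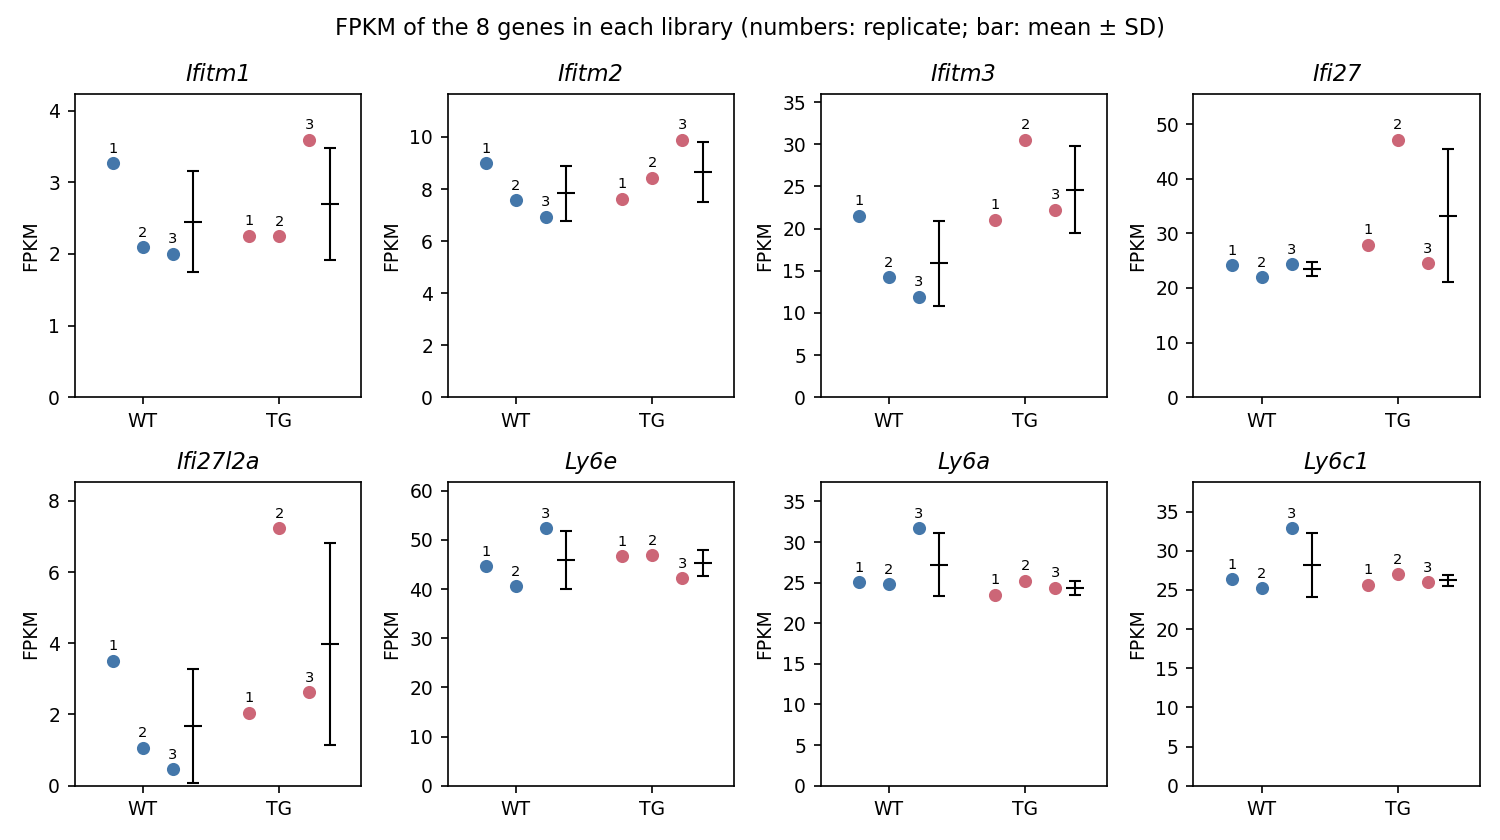
FPKM of each of the 8 genes by library, with 1 point per library, the replicate number above it, and the mean ± SD of the 3 libraries beside each group. Ifi27 separates the groups, with TG3 at 24.5 FPKM just above the highest WT value of 24.4, and in the other 7 genes the groups overlap.

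In length-normalised level the genes ranked in WT as Ly6e, Ly6c1, Ly6a, Ifi27, Ifitm3, Ifitm2, Ifitm1 and Ifi27l2a. The mean was 45.9 ± 5.96 FPKM for Ly6e and 1.68 ± 1.61 FPKM for Ifi27l2a (SD, n = 3). The WT ranges of Ly6c1 and Ly6a overlapped, as did those of Ifitm1 and Ifi27l2a, and the other neighbours in the order did not overlap. In TG the range of Ifi27, which reached its highest value in TG2, overlapped those of Ly6e, Ly6c1, Ly6a and Ifitm3.

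Ifitm3, the family member that works mainly in endosomes, showed the smallest unadjusted p of the 8 genes. In the order WT1, WT2, WT3 its level was 21.5, 14.2 and 11.9 FPKM, and in the order TG1, TG2, TG3 it was 21.1, 30.5 and 22.2 FPKM. TG2 was the highest library and WT3 the lowest, and the groups overlapped because TG1 fell just below WT1. The log2 fold change was 0.65 with a standard error of 0.231 and a 95% interval from 0.11 to 1.19 (limma, unadjusted p = 0.0246, adjusted p = 0.786), on 151 to 371 reads per library. Without TG1 and TG2, the value was 0.53 with an unadjusted p of 0.265, from TG3 alone against the 3 WT libraries, and TG3 was above WT1, the highest of these, by less than 1 FPKM.

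The unadjusted call for Ifitm3 was lost when any of 4 libraries was left out, while the direction did not change. The log2 fold change was 0.89 without WT1 (limma, unadjusted p = 0.00413). It lost the unadjusted threshold without WT2 (unadjusted p = 0.102), WT3 (unadjusted p = 0.101), TG2 (unadjusted p = 0.107) or TG3 (unadjusted p = 0.0555), with values of 0.60, 0.47, 0.49 and 0.72 in this order, and kept it without TG1.

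Ifitm2 and Ifitm1, which act at endosomes and at the cell surface respectively, had smaller log2 fold changes. Ifitm2 was at 9.001, 7.56 and 6.93 FPKM in WT and at 7.62, 8.43 and 9.89 FPKM in TG. Ifitm1 was at 3.26, 2.09 and 2.00 FPKM in WT and at 2.25, 2.24 and 3.59 FPKM in TG, on 37 to 71 reads. In both genes TG3 was the highest library and WT1 the next, so that the spread within each group was as wide as any gap between them. The log2 fold changes were 0.14 (95% interval -0.17 to 0.45, limma unadjusted p = 0.316) for Ifitm2 and 0.13 (-0.45 to 0.71, unadjusted p = 0.612) for Ifitm1. The Ifitm1 value turned to -0.09 without TG3.

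WT1 and TG3, the libraries highest in Ifitm1 and Ifitm2, also had the highest median over the genes of meningeal fibroblasts, the connective tissue cells of the brain coverings. All 14 genes of that list were measured, and 13 had a log2 fold change above 0. Their median difference from the WT mean on the log2 scale was 0.59 in WT1, 0.44 in TG1 and 0.51 in TG3, against -0.24, -0.29 and -0.08 in WT2, WT3 and TG2. The summed FPKM ran from 49.8 to 91.6 in WT and from 78.9 to 109.9 in TG. At an unadjusted p under 0.05, 1 gene, Igfbp2, was higher in TG, against 3.13% of all genes. Igfbp2 was highest in TG1 and TG2, and without it the sums were 37.5 to 72.8 FPKM in WT and 46.4 to 60.4 FPKM in TG. The part of these cells in the Ifitm values was not tested.

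**Figure D2:**
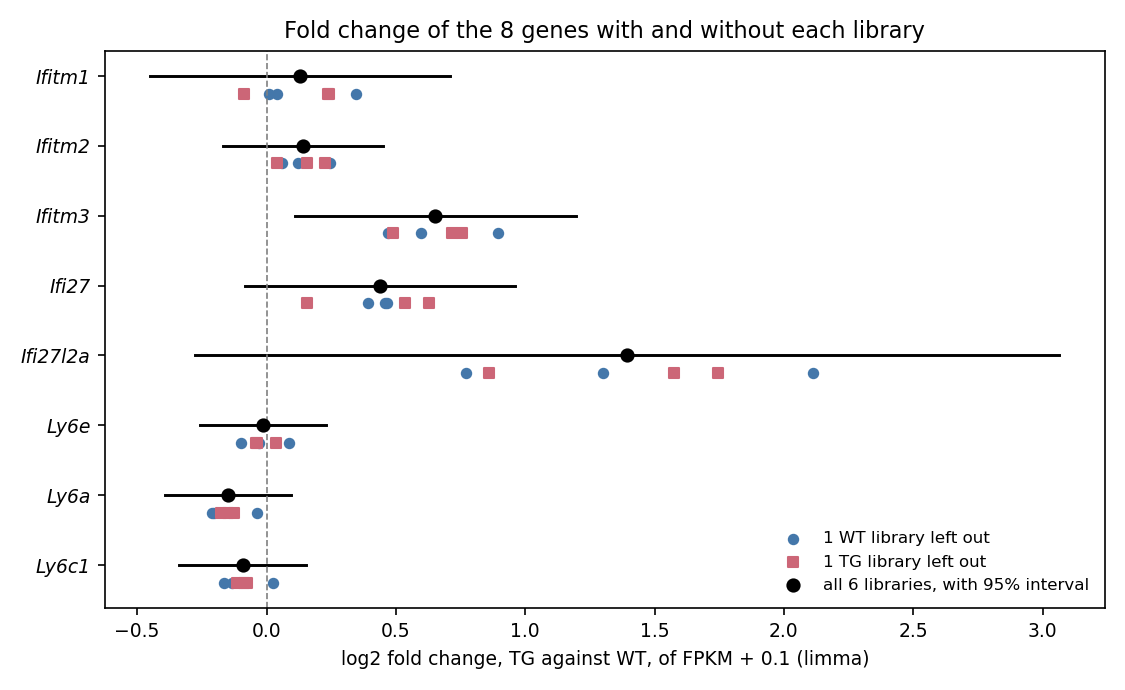
log2 fold change of TG against WT for each gene (horizontal axis, log2 of FPKM + 0.1), with black points and lines for all 6 libraries and their 95% interval and smaller symbols for fits without 1 WT library (circles) or 1 TG library (squares). Ifitm3 stays between 0.47 and 0.89, Ifi27l2a ranges from 0.77 to 2.11, and the intervals of all genes but Ifitm3 include 0.

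Ifi27, whose product is a small hydrophobic protein strongly induced by type I interferon, was at 24.1, 22.0 and 24.4 FPKM in WT and at 27.9, 47.1 and 24.5 FPKM in TG. TG2 was well above every other library, TG1 was slightly raised, and TG3 was level with WT1 and WT3. The log2 fold change was 0.44 with a standard error of 0.223 (95% interval -0.08 to 0.96, limma unadjusted p = 0.0878, adjusted p = 0.789). With 521 to 1239 reads per library, Ifi27 was well covered, and its SD was 1.30 FPKM in WT and 12.2 FPKM in TG, the group with the high TG2 library.

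Leaving out TG2 brought the Ifi27 change to 0.16 (unadjusted p = 0.140), and leaving out TG1 and TG2 together brought it to 0.06. Without TG3 it was 0.63 with an unadjusted p of 0.0358. TG2 and TG1 were, in this order, also the libraries with most choroid plexus RNA. All 18 of those markers were measured and had a log2 fold change above 0. Of them, 10 were higher at an unadjusted p under 0.05, against 3.13% of all genes. Of those markers, Tmem72 had a WT mean under 0.1 FPKM and passed the minimum only through TG. In bulk tissue, more cells of a type and more RNA per cell cannot be told apart.

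Ifi27l2a, the neighbour of Ifi27 and another interferon-induced gene, had the largest fold change and the widest error. Its level was 3.50, 1.07 and 0.461 FPKM in WT and 2.05, 7.23 and 2.63 FPKM in TG. The WT libraries alone spanned a wide range, WT1 exceeded TG1 and TG3, and TG2 was the highest of all. The log2 fold change was 1.39 with a standard error of 0.712 (95% interval -0.28 to 3.06, limma unadjusted p = 0.0895, adjusted p = 0.789). The gene rested on few reads, 30, 8 and 4 in WT and 15, 60 and 22 in TG, so its counting error was large. Without WT1 the value was 2.11 with an unadjusted p of 0.0166, without WT3 it was 0.77, and without TG2 it was 0.86. With a pseudocount of 1 it was 0.91.

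The 3 Ly6 genes were the most abundant members in WT and did not separate the groups. Ly6e, a broadly expressed antiviral surface protein, was at 44.7, 40.6 and 52.4 FPKM in WT and at 46.7, 46.9 and 42.2 FPKM in TG. WT3 was the highest library and WT2 the lowest, with all TG values between them. The log2 fold change was -0.01 with a standard error of 0.104 on 2484 to 3710 reads (limma, unadjusted p = 0.899), and the 95% interval of the fold, 0.837 to 1.17, bounds the size of any change.

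Ly6a, known as Sca-1 from its use in sorting blood stem cells, was at 25.1, 24.8 and 31.7 FPKM in WT and at 23.5, 25.2 and 24.4 FPKM in TG. Ly6c1, a surface protein of brain endothelium and of some leukocytes, was at 26.3, 25.3 and 32.9 FPKM in WT and at 25.7, 27.0 and 26.0 FPKM in TG. Both genes were high in WT3 and even across the other 5 libraries, and the groups overlapped in both. The log2 fold changes were -0.15 (fold interval 0.761 to 1.07, limma unadjusted p = 0.192) for Ly6a and -0.09 (0.791 to 1.11, unadjusted p = 0.406) for Ly6c1. Without WT3 the values were -0.04 for Ly6a, 0.02 for Ly6c1 and 0.09 for Ly6e, so the sign of Ly6c1 and Ly6e turned when this library was left out.

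The list of other brain endothelium markers was examined beside Ly6a and Ly6c1. Of 20 measured, 3 (Flt1, Slco1c1 and Ocln) were higher in TG at an unadjusted p under 0.05, against 3.13% of all genes. At that level 0 were lower, against 2.78% of all genes, and the median log2 fold change was 0.09. The median difference from the WT mean was 0.13, -0.09 and -0.04 in WT1, WT2 and WT3 and ran from 0.06 to 0.09 in TG, so WT3, the library in which Ly6a and Ly6c1 peaked, was not the highest of WT in this median. The summed FPKM was 356.5 to 421.2 in WT, highest in WT3, and 383.8 to 450.8 in TG, but Bsg, a surface protein that is not limited to endothelium, made up most of it. Without Bsg the sums were 150.8 to 171.5 in WT, with WT3 at 161.6, and 166.7 to 173.1 in TG. Of the 3 genes higher in TG, Slco1c1 was at 10.1, 8.86 and 8.60 FPKM in WT and at 11.2, 17.5 and 10.4 FPKM in TG. It was highest in TG2, the library with most choroid plexus RNA, while Flt1 and Ocln were highest in TG1. The part of choroid plexus RNA in the Slco1c1 values was not tested, nor was that of endothelial content in the Ly6 values.

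**Figure D3:**
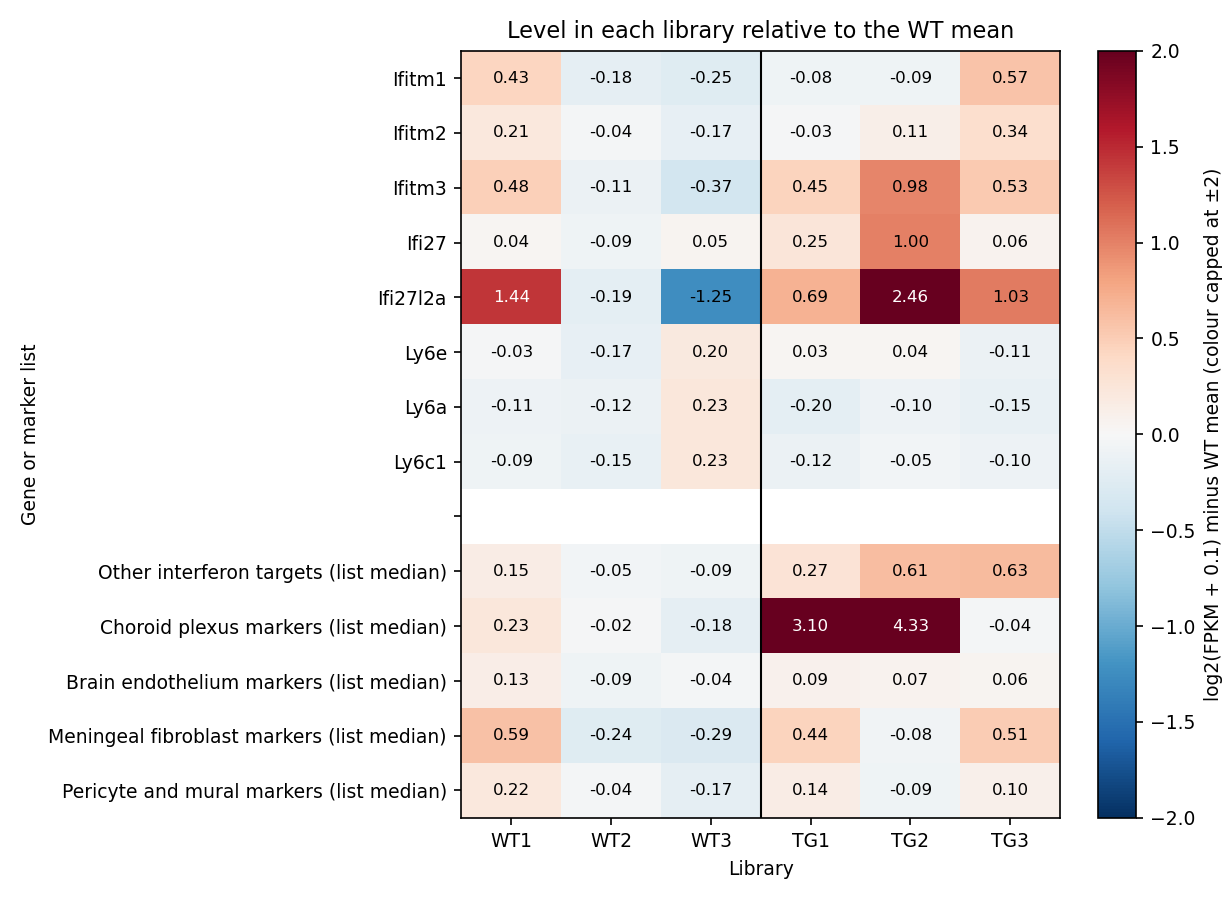
Level of each gene (upper block) and median level of 5 marker or target lists (lower block) in each library, as log2(FPKM + 0.1) minus the WT mean, with red for higher and blue for lower and the colour capped at ±2. Ifitm3, Ifi27 and Ifi27l2a are highest in TG2 (0.98, 1.00 and 2.46), Ifitm1 and Ifitm2 in TG3 (0.57 and 0.34), and the 3 Ly6 genes in WT3 (0.20 to 0.23).

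The library that was highest thus differed by gene and not only by family: TG2 for Ifitm3, Ifi27 and Ifi27l2a, TG3 for Ifitm1 and Ifitm2, and WT3 for the Ly6 genes. Over the 6 libraries, Pearson r of the log2 levels was 0.98 for Ifitm3 with Ifi27l2a, on different chromosomes, 0.93 for Ifitm1 with Ifitm2 and 0.97 for Ly6a with Ly6c1. It was 0.43 for Ifitm1 with Ifitm3 and -0.65 for Ifitm3 with Ly6a. These 6 points share library depth and composition, and the Ifitm and Ly6 pairs also share sequence, so the values describe these libraries only. The median over the 8 genes, relative to the WT mean on the log2 scale, took the values 0.12, -0.13 and -0.06 for WT1, WT2 and WT3, compared with 0.00, 0.08 and 0.20 for TG1, TG2 and TG3, with a pooled SD of 0.118. WT1 exceeded TG1 and TG2 in this median.

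Relatives of the 3 families that did not carry the names above gave no gene past an unadjusted p of 0.05 in either direction. Of 9 other genes of the IFITM and dispanin family, 7 were measured. Syndig1, a synaptic protein and the most abundant, lay between 9.14 and 12.6 FPKM, Ifitm10 between 3.24 and 4.56 FPKM and Tmem91 between 1.41 and 2.02 FPKM, each with overlapping groups. Tmem91 had the smallest p of them, at 0.166. Ifi27l2b was below the minimum, with at most 0.195 FPKM in a library.

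Among 34 other LY6 and uPAR domain genes, 32 were in the table, 8 were listed at 0 in every library and 14 were measured. The most abundant were neuronal: Lynx1, which binds nicotinic acetylcholine receptors, at 78.8 to 90.6 FPKM, and Ly6h at 60.6 to 86.6 FPKM. Lypd1, Lypd6 and Lypd6b lay between 1.95 and 6.98 FPKM, and Ly6g6e, with the smallest p of the list (0.0820), between 0.797 and 1.30 FPKM. Cd59a, an inhibitor of complement, was at 2.45, 2.39 and 2.30 FPKM in WT and at 4.22, 7.18 and 2.14 FPKM in TG (unadjusted p = 0.0894). It was raised in TG1 and TG2, the libraries with most choroid plexus RNA, and not in TG3. Ly6c2, the copy that shares sequence with Ly6c1, reached at most 0.387 FPKM, against at least 25.3 FPKM for Ly6c1.

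No receptor or signal protein upstream of the members passed the test. Of 10 genes for interferon receptors, Janus kinases and transcription factors, 0 passed an unadjusted p of 0.05 and the median log2 fold change was 0.05. Jak1, the most abundant, was at 28.7, 29.2 and 28.7 FPKM in WT and at 30.4, 25.9 and 27.1 FPKM in TG. Ifnar2, a chain of the type I receptor and the gene with the smallest p (0.119), was at 3.92, 3.55 and 3.77 FPKM in WT and at 3.63, 5.13 and 4.76 FPKM in TG. In Ifnar1 and Stat2 all TG values lay above all WT values, as in 6.35% of all genes, with log2 fold changes of 0.09 and 0.21. Stat2 was at 3.82, 3.77 and 2.73 FPKM in WT and at 4.02, 3.83 and 3.99 FPKM in TG. Its WT3 value was low, and the other WT values lay just below TG2.

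Most other interferon target genes had a log2 fold change above 0. Of 32 listed, 29 were measured and 28 had a log2 fold change above 0. At an unadjusted p under 0.05, 11 were higher in TG and 0 were lower, with 0 past the adjusted threshold. Over all genes, 49.6% were above 0, and 3.13% were higher and 2.78% lower at the unadjusted level. The median of the 29 targets was 0.45, against 0.14 for the 8 genes. In 13 targets all TG values lay above all WT values, against 1 of the 8 and 6.35% of all genes. Of these targets, Ifi44 and Zbp1 had a WT mean under 0.1 FPKM and passed the minimum only through TG. This list was drawn up with earlier results of these data known, so it is not independent evidence of its direction.

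Irf7, the transcription factor that amplifies type I interferon, had the smallest p of that list. It was at 0.573, 0.443 and 0.410 FPKM in WT and at 0.937, 1.27 and 0.982 FPKM in TG, with a log2 fold change of 1.02 (limma unadjusted p = 0.00193, adjusted p = 0.786). Its groups did not overlap and TG3 was above TG1. Lgals3bp, a secreted glycoprotein and the most abundant of the list, was at 5.95, 4.18 and 4.54 FPKM in WT and at 9.06, 32.2 and 7.68 FPKM in TG, with TG2 far above the rest as in Ifi27.

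**Figure D4:**
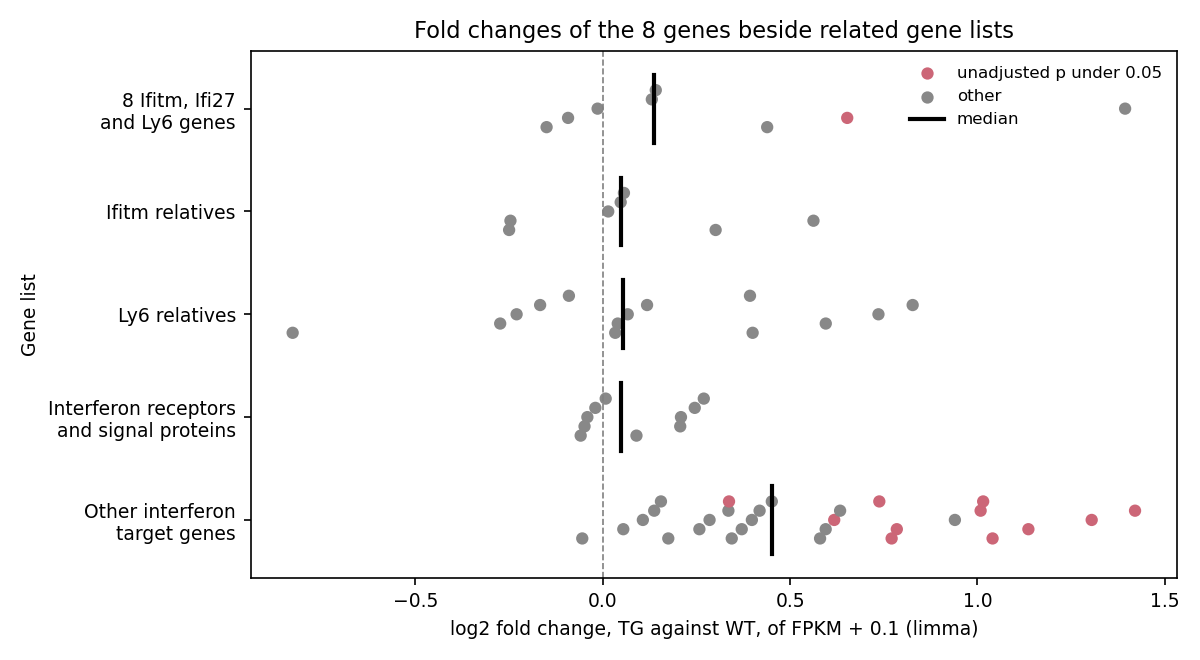
log2 fold change of TG against WT (horizontal axis, log2 of FPKM + 0.1) for the 8 genes, their relatives, interferon receptors and signal proteins, and other interferon targets, with 1 point per gene measured, a black line at the list median and red for an unadjusted p under 0.05. The medians of the first 4 lists lie between 0.05 and 0.14 and that of the other targets at 0.45, and red points occur for Ifitm3 and for 11 other targets.

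Markers of blood cells and of microglia were also compared across the libraries. Of 12 T and NK cell genes, 6 were measured, all 6 with a log2 fold change above 0, and Trbc2 was higher in TG at an unadjusted p under 0.05. Over all genes, 49.6% were above 0 and 3.13% were higher at that level. Cd3d, Cd8a, Cd4 and Nkg7 had a WT mean under 0.1 FPKM and passed the minimum only through TG. The filter therefore favoured this direction. Trbc2 rested on 2, 6 and 5 reads in WT and on 10, 12 and 26 reads in TG. The summed FPKM of all 12 was 1.25 to 1.38 in WT and 2.20 to 4.12 in TG. Of 12 monocyte and neutrophil genes, 9 were measured, 3 had a log2 fold change above 0 and Lyz2 was higher at that level, with sums of 16.6 to 35.2 FPKM in WT and 16.5 to 39.8 FPKM in TG. Of 13 microglial genes Csf1r was higher, the median log2 fold change was 0.04, and the sums were 214.9 to 242.4 FPKM in WT and 198.0 to 267.5 FPKM in TG. The part of any of these cells in the values of the 8 genes was not tested.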

How the data were processed

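Hippocampal RNA-seq of 3 WT and 3 TG mice was analysed. The authors counted reads per gene with HTSeq and deposited FPKM for each library. The aligner and strand setting are not given in the sources used here, and the submitters' processing notes name GRCm38 and mm10. The paper's methods name Trizol and NEBNext, and the labels name RNeasy and SMARTer kits. FPKM times gene length came out as whole reads in 100% of values (tolerance 0.05), and 3 reads on a gene of 1 kb equal 0.160 to 0.190 FPKM, which covers counting error only.

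TG was compared with WT by limma 3.58.1 (R 4.3.3; lmFit and eBayes with trend) on log2(FPKM + 0.1), for genes whose mean reached 0.1 FPKM, with Benjamini-Hochberg adjustment over 20952 genes and a threshold of 0.05. Fold changes are on this scale and understate those of low genes. The test was checked on simulated data. Alternatives changed the pseudocount, filter, scaling, trend, replicate block and libraries, or used limma-voom on the recovered reads.

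The members and lists were chosen with earlier results of these data known, and after values were seen 1 gene wrongly listed as an Ifi27 relative and 1 duplicate symbol were removed. Named were the 8 genes, the most abundant gene and that with the smallest p of the family, pathway and neighbour lists (for cell markers, at most these), relatives whose mean reached 1 FPKM, and the 10 genes closest to the members' mean profile. Flt1, Slco1c1, Ifnar1, Stat2, Gm45717 and Ly6c2 were named, and list sums without Igfbp2 or Bsg added, after their values were seen. P-values measure the spread between 3 libraries per group, each taken as 1 mouse.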

Additional observations from a re-analysis of the deposited data

How the results depend on the processing

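No member passed the adjusted threshold under any of the 15 alternatives. The number of members higher in TG at an unadjusted p under 0.05, which was 1, became 0 with eBayes without trend (Ifitm3 unadjusted p = 0.0555) and without TG1 and TG2 together, and 2 with limma-voom (Ifitm3 unadjusted p = 0.00907, Ifi27 unadjusted p = 0.0438). With 1 library left out it ran from 0 to 2, being 2 without WT1 and 0 without WT2, WT3 or TG2, and without TG3 the 1 gene was Ifi27 in place of Ifitm3. The number with all TG above all WT, which was 1, ran from 1 to 5 with 1 library left out, with 5 without WT1 and 2 without TG1. Groups with fewer libraries separate more easily, and the share of all genes was not counted in these fits. These numbers therefore cannot be set against the 1 or its background share. The median log2 fold change of 0.14 ran from 0.039 to 0.30 with 1 library left out. It was 0.20 without TG1 and TG2 together, a fit in which TG3 was assumed to vary like the other libraries. Signs reversed without TG3 for Ifitm1, whose log2 fold change ran from -0.087 to 0.35 with 1 library left out, without WT3 or TG3 for Ly6e (-0.097 to 0.085) and without WT3 for Ly6c1 (-0.17 to 0.024). The causes were not tested. Other pseudocounts, filters and upper quartile scaling changed no call. The Ifi27l2a log2 fold change of 1.39 was 0.91 with a pseudocount of 1 and 1.49 with 0.01. The replicate numbers did not pair the samples (correlations of same-numbered libraries 0.0125, 0.0434 and 0.00314), and with the replicate block the median stayed 0.14 and no call changed (Ifitm3 unadjusted p = 0.0289). Depth limits Ifi27l2a most, with 4 reads in WT3.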

Other observations

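The coding genes nearest to the members on the chromosomes were examined. Of 48 protein-coding genes within 200 kb of a member, 29 were measured, with a median log2 fold change of 0.03. At an unadjusted p under 0.05, 1 was higher in TG and 0 were lower, against 3.13% and 2.78% of all genes. The 1 gene was 9330161L09Rik near Ifi27, at 0.0541, 0.0620 and 0.267 FPKM in WT and at 0.190, 0.503 and 0.665 FPKM in TG. Hras, the most abundant neighbour and a small GTPase of growth factor signalling, was at 28.8, 28.3 and 34.2 FPKM in WT and at 27.9, 28.2 and 27.5 FPKM in TG. Like the Ly6 genes it was highest in WT3, and all its TG values lay below all its WT values. This was so for 2 of the 29 neighbours measured, against 5.71% of all genes. In 0 of them did all TG values lie above, against 6.35% of all genes.

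Among 13317 other genes whose mean reached 1 FPKM, the 10 whose log2 levels followed the mean profile of the members most closely over the 6 libraries had a Pearson r between 0.965 and 0.988. They were Nckap1l, an actin regulator of blood and microglial cells, Tnfaip1, Tnfrsf19, the membrane protease Mmp14, Trip10, Vezf1, the clock factor Npas2, the TGF-beta receptor Tgfbr1, Fcho2 and the predicted miRNA gene Gm23726. In each of the 10 the WT and TG ranges overlapped. Nckap1l was at 2.19, 1.65 and 1.53 FPKM in WT and at 1.81, 2.54 and 2.07 FPKM in TG, with WT1 above TG1 as in Ifitm3. The mean profile was taken over log2 levels that were centred but not scaled, so members with a wide spread weighed most. Ifi27l2a had the widest spread, 15.7-fold between libraries on 4 to 60 reads, and the 3 Ly6 genes had a negative r with it. With 6 libraries and so many genes, correlations of this size describe the ranking only.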
